A study of Mus musculus with 6 samples.

Results

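Vomeronasal receptors are the pheromone receptors of the vomeronasal organ, a chemosensory tube at the base of the nasal septum. They form a pair of unrelated families of G protein-coupled receptors. V1R receptors (gene symbols Vmn1r) sit in the apical sensory neurons, signal through the G protein alpha subunit Gnai2 and have a single coding exon. V2R receptors (Vmn2r) sit in the basal neurons, signal through Gnao1 and carry a long extracellular domain. A sensory neuron expresses 1 or very few of these genes, the genes lie in large clusters, and the family is not known for a role in the spleen. They were therefore read here as genes expected to be silent in spleen, to show the signal floor of the arrays, the probes that are bright regardless, and the differences between groups that arise among such probes.

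The probes were chosen by their gene symbol alone, without their values. Probes whose single symbol in the platform annotation named a vomeronasal receptor, outside the last array rows, numbered 88 of the 35587 on the array. They stand for 87 genes, of 17848 that single symbols name on that part of the array, since Vmn1r32 had a pair of probes. V1R probes numbered 80 and V2R probes 8. A further 22 probes carried several symbols with a vomeronasal receptor among them and were not used.

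Spleens of BALB/c females were taken on postnatal day 21. Control mice and mice given lead (Pb) at 0.1 mM, starting on gestation day 8, gave 3 arrays each, 1 per sample, read in 1 colour (Cy5) on CodeLink mouse whole genome arrays. The labels give no other treatment, no route for the lead and no litter. They number 3 mice in each group without saying whether any were littermates, so p-values measure the spread between these samples. Pb replicate 3 was left out because its values did not follow the probes: across all probes as deposited (log2) its r with the controls was 0.046 to 0.048, against 0.950 to 0.955 between controls. All comparisons therefore rest on 5 arrays, 3 control and 2 Pb. Log2 levels are corrected for position on the array and lie near 0 at the array median. A probe's brightness depends on its own sequence as well as on its transcript, so a rank here is a rank of probe signals and not of transcript amounts.

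In GRCm38.p6 the genes lie mostly on chromosomes 7 (28 probes), 6 (25), 13 (18) and 17 (13). RefSeq lists a start site for 76 of the 87 genes. The 250 bases before that start are shown for 3 of them: Vmn1r71, whose probe was the brightest of the family in control spleen, Vmn1r4, which overlaps a coding gene and is bright, meaning above the median of all probes in every control array, and Vmn1r80, whose probe was the dimmest. They read 5′ to 3′ on the gene's strand, and capitals mark a TATAAA match on either strand.
Vmn1r71, chr7:10749539-10749788, minus strand: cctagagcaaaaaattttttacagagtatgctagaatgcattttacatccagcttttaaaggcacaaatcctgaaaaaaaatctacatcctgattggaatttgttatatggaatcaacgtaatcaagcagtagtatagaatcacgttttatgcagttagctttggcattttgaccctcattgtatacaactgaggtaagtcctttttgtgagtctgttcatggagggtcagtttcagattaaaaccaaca
Vmn1r4, chr6:56956263-56956512, plus strand: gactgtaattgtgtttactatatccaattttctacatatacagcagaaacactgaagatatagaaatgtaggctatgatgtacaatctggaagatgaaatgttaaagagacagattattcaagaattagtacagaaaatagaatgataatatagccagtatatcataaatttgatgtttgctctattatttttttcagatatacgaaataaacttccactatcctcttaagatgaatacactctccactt
Vmn1r80, chr7:12192715-12192964, plus strand: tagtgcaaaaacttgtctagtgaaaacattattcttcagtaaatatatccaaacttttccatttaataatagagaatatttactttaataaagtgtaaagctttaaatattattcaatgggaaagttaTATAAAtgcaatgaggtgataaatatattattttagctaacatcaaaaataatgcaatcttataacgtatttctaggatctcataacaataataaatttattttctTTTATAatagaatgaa

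These windows are rich in A and T. Over the 76 genes the median GC content was 34.0% (quartiles 29.2% and 38.9%), against 52.0% over 27025 mouse genes with such a window. The median number of CG dinucleotides was 1, against 6. The letters TATAAA stood on either strand in 35.5% of the windows, against 13.0% of all. The letters GGGCGG were in 0 of the 76 windows, against 32.9% of all. The 12 genes with bright probes that have a window had a median GC content of 36.4% and the other 64 one of 33.4%, so both sets were poor in G and C. Whether the windows act as promoters was not tested.

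Most vomeronasal receptor probes were dim in control spleen. The median probe of the family lay at percentiles 27.1, 24.9 and 26.8 of all probes in control replicates 1, 2 and 3, a mean of 26.3 ± 1.2 (SD, n = 3). In Pb replicates 1 and 2 it lay at percentiles 26.9 and 26.2, within the range of the controls. In every control array 42 of the 88 probes (47.7%) lay under the 30th percentile, where 24.0% of all probes did. In log2 units the median of the family was -1.69, -1.83 and -1.69 in the controls and -1.65 and -1.70 in Pb. The deposited intensity was at or under 0 for 1 family probe in each control array, 0 in Pb replicate 1 and 3 in Pb replicate 2.

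**Figure D1:**
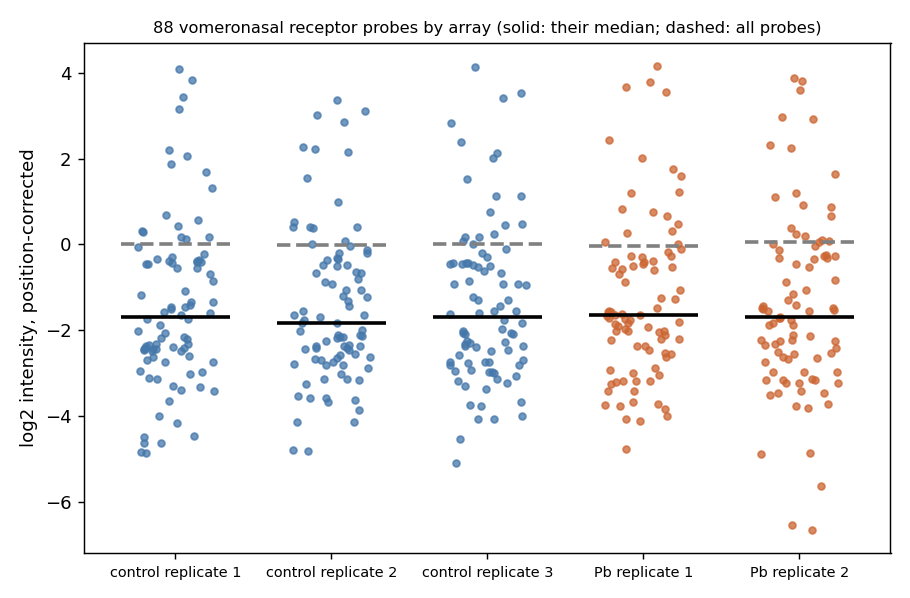
Position-corrected log2 intensity of the 88 vomeronasal receptor probes in each of 5 arrays, 1 point per probe, with the median of the family (solid line) and of all probes (dashed line). The family median lies between -1.83 and -1.65 in all 5 arrays, and the highest probe lies between 3.38 (control replicate 2) and 4.15 (Pb replicate 1).

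Other families with no known place in spleen were dim too. The 501 olfactory receptor probes had a median at percentile 34.5 of control means, 31 keratin-associated protein probes at percentile 28.1, 26 beta-defensin probes at percentile 25.9 and 6 bitter taste receptor probes at percentile 19.1, against percentile 23.3 for the vomeronasal receptors. Probes above the array median in all 3 controls made up 15.9% of the vomeronasal receptors, 23.4% of the olfactory receptors, 25.8% of the keratin-associated proteins and 47.3% of all probes. By their medians, genes of spleen cells lay far above, but single probes overlapped. The olfactory receptor Olfr692 stood at percentile 99.2 and Vmn1r71 at percentile 91.5. The lowest T cell probe stood at percentile 67.1 and the lowest red pulp macrophage probe at percentile 56.5. The 7 B cell probes had their median at percentile 94.0 and the 8 T cell probes at percentile 84.2, with Cd79b, a chain of the B cell receptor complex, at 5.72 ± 0.12 and Cd3g, of the T cell receptor complex, at 5.22 ± 0.17 (log2, SD, n = 3). The 4 red cell probes had theirs at percentile 99.4 and the 7 red pulp macrophage probes at percentile 90.2.

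**Figure D2:**
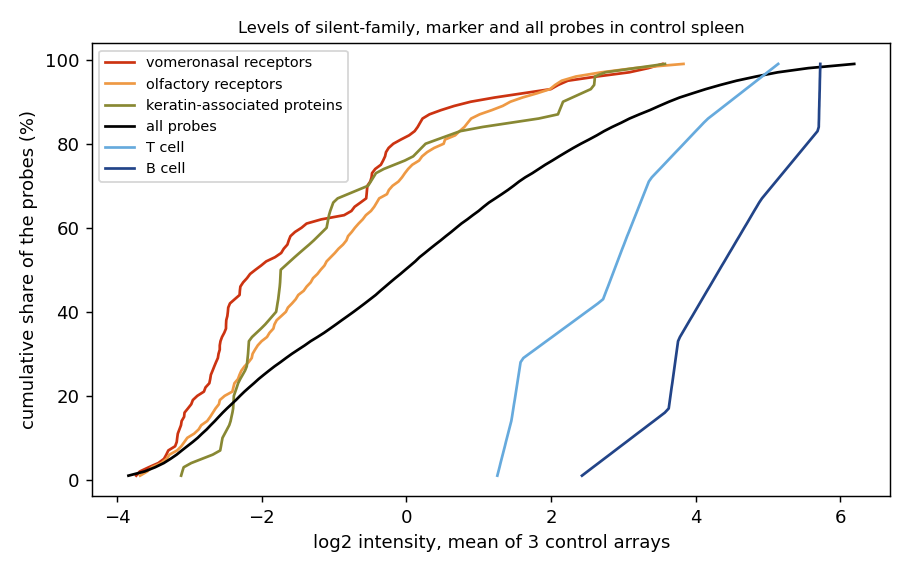
Cumulative share of probes (%) by mean log2 intensity of the 3 control arrays, for vomeronasal receptors, olfactory receptors, keratin-associated proteins, all probes, and B and T cell markers. The vomeronasal receptor curve has its median at -2.08, left of all probes at -0.01, and the marker curves lie to the right, at 2.88 and 4.33.

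The spread between control arrays set how far a dim probe could be read. Among the 40 family probes under percentile 20 of control levels the median SD of 3 controls was 0.79 on the log2 scale, and among the 21 between percentiles 40 and 60 it was 0.17. All probes of the same levels had medians of 0.80 and 0.17. The 3 control values of 1 probe differed by over 1 log2 unit for 41 of the 74 probes that were not bright and for 0 of the 14 that were. The largest SD, 1.61, was that of Vmn1r13, at -4.63, -2.18 and -1.60. In control replicate 1 it was deposited as 0.0041, under the lower limit to which dim intensities were raised before correction (-4.91 in log2). Of the dimmest probes, Vmn1r80 was at -4.50, -3.59 and -3.68, Vmn1r24 at -4.17, -4.14 and -2.80, and Vmn1r22 at -3.14, -2.79 and -5.10. Vmn2r51 was at -3.40, -4.81 and -2.25 and Vmn1r188 at -3.03, -4.13 and -2.93. A different one of these 5 probes was the dimmest in each control array, so their order was not resolved.

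Across the 88 probes the controls had r of 0.86 to 0.87 with each other, a description over probes that share arrays and array rows. Within the 14 bright probes, set apart by their levels in these same arrays, r was 0.97 to 0.99. Within the other 74 it was 0.65 in every pair of controls, and over all probes 0.96.

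The levels of V1R and V2R probes overlapped, with quartiles at percentiles 13.1 and 43.7 for V1R and 23.0 and 48.7 for V2R. With 8 V2R probes, a difference between the families was not tested. The 8 V2R probes had their median at percentile 41.0 and none was bright: the highest was Vmn2r10, at 0.31, -0.03 and 0.19 in the controls, and the next Vmn2r122, at -0.07, 0.01 and 0.07. The 80 V1R probes had theirs at percentile 21.3, and 14 (17.5%) were bright. By the older V1r names in RefSeq, which group the genes by sequence, the 16 probes of clade V1rc had a median at percentile 16, the 10 of V1rh at percentile 16.8, the 11 of V1rg at percentile 20.8, the 13 of V1re at percentile 28.7 and the 8 of V1ri at percentile 35.9. The range between quartiles of V1rc (8.41 to 20.5) lay below that of V1ri (25.3 to 46.9), and those of the other 3 clades overlapped both. Older names were missing for 7 probes and pointed to more than 1 clade for 4, and these were left out of the grouping.

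The family had 17, 16 and 18 probes above the median of all probes in control replicates 1, 2 and 3. The same 14 were above it in all 3 controls, and all 14 were in both Pb arrays as well. Vmn1r71 was the brightest, with deposited intensities of 18.8, 11.03 and 19.7 in the controls and 13.6 and 45.1 in Pb, where the array median is near 1. After position correction its log2 levels were 4.08, 3.38 and 4.14 in controls and 4.15 and 3.89 in Pb. The Pb values lie within or next to the control range. At a control mean of 3.87 ± 0.42 (SD, n = 3) it stood at percentile 91.5 of all probes.

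The next probes were of several clades and chromosomes. Vmn1r40 was at 3.84, 3.12 and 3.53 in controls and 3.56 and 3.60 in Pb. Vmn1r70 was at 3.44, 3.02 and 3.42 in controls, and at 3.67 and 3.81 in Pb. Vmn1r193 was at 3.16, 2.86 and 2.82 in controls, and its Pb values were 3.79 and 2.93. Controls and Pb overlapped for Vmn1r40 and Vmn1r193, and both Pb values of Vmn1r70 lay above the controls, with a log2 difference of 0.45.

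Below them, Vmn1r74 had a control mean of 2.29 ± 0.10, Vmn1r84 of 2.12 ± 0.04, Vmn1r4 of 2.04 ± 0.17 and Vmn1r58 of 1.59 ± 0.09 (log2, SD, n = 3 each). Vmn1r89 followed at 1.15 ± 0.15, Vmn1r87 at 0.78 ± 0.31, Vmn1r202 at 0.57 ± 0.17 and Vmn1r69 at 0.36 ± 0.10. Vmn1r53, at 0.23 ± 0.20, and 1 probe of Vmn1r32, at 0.19 ± 0.18, lay just above the array median, with Vmn2r10, at 0.16 ± 0.17, the nearest probe outside the set. Neighbours in this order at the top (Vmn1r71, Vmn1r40 and Vmn1r70) had overlapping control values, as did the last 4 probes. Raising the limit to the 75th percentile of each control array left 6 probes, and the 90th left 0.

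**Figure D3:**
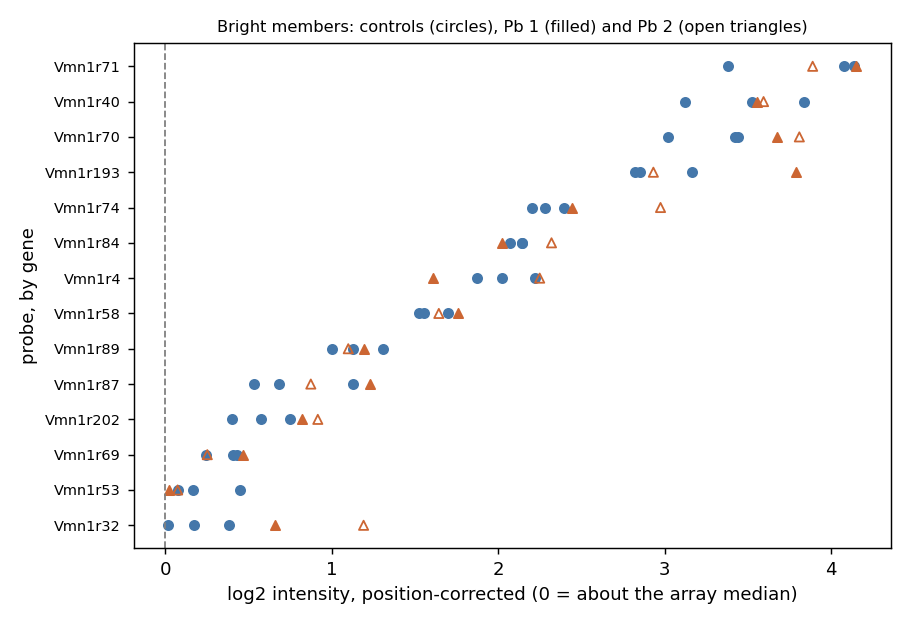
Log2 intensity (position-corrected) of the 14 bright vomeronasal receptor probes in 3 control arrays (circles), Pb replicate 1 (filled triangles) and Pb replicate 2 (open triangles). The probes keep nearly the same order over the 5 arrays, with control means from 3.87 (Vmn1r71) to 0.19 (Vmn1r32). Both Pb arrays lie above every control for 4 of the 14, Vmn1r32 among them, against 13.0% of all probes. They lie below for 1, against 11.9%.

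What the bright probes share beyond their level was looked for in the annotation and on the array. Vmn1r4 was the only one of the 14 whose gene overlaps another protein-coding gene in GRCm38.p6. That gene is Nt5c3, which encodes a pyrimidine nucleotidase of red cells, on the opposite strand. The Nt5c3 probe stood at 5.84 ± 0.27 (log2, SD, n = 3), percentile 98.5. Vmn1r53 overlaps a pseudogene, and the spans of 2 of the other 74 probes overlap another gene. The nearest other coding gene had a probe for 10 of the 14 bright probes, with a median at percentile 37.2, and for 49 of the other 74, with a median at percentile 67.1. Both sets ranged from 13.6 to 98.5. Whether signal at the bright probes comes from the named transcript or from another was not tested, since probe sequences were not used here. On the array, 5 of the 14 bright probes lie in 1 array row, which holds 14 family probes in all. For each probe the median percentile of non-family spots within 1 row and 3 columns was taken. Around the bright probes these medians had a median of 49.1, near that of all probes, and ranged from 28.4 to 67.6. Around the other 74 they had a median of 44.8 and ranged from 11.6 to 71.7.

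Vmn1r32 is the 1 gene with 2 probes, and they did not follow each other. The probe numbered 125025 was at 0.18, 0.39 and 0.02 in controls and at 0.66 and 1.19 after lead. The probe numbered 177098 was at -2.60, -2.41 and -1.55 in controls, with Pb values of -3.74 and -2.66. The first lay above its controls in both Pb arrays and the second below them. Without position correction the first turned to a log2 difference of -0.81, against 0.73 with it, so its direction turned with the correction.

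Partners of these receptors gave a mixed reading. Gnai2, which also serves chemokine receptors on lymphocytes, was at 5.79 ± 0.10, percentile 98.4. Gnao1, the V2R partner, was at -2.34 ± 1.23, and Omp, the olfactory marker protein of mature sensory neurons, at -2.47 ± 2.04 (log2, SD, n = 3). The formyl peptide receptor genes of vomeronasal neurons were at -2.21 (Fpr-rs3), 0.56 (Fpr-rs4) and -2.72 (Fpr-rs6). Of the 22 genes listed as partners 13 had a single-symbol probe, 16 probes in all, and 0 had an unadjusted p under 0.05 between groups, against 5.84% of all probes (smallest limma adjusted p = 0.753). The groups did not overlap for 6 of the 16 (37.5%), 2 above and 4 below, against 24.9% of all probes. Trpc2, the channel of vomeronasal transduction, had no probe with that single symbol in the annotation used.

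No vomeronasal receptor probe passed in the comparison of Pb with control. Over the 34949 probes tested, limma called 0 (0.0%) past an adjusted p of 0.05, and the smallest adjusted p of the family was 0.326. At an unadjusted p under 0.05 it called 10 of the 88 (11.4%), against 5.84% of all probes: 6 higher, against 2.78%, and 4 lower, against 3.06%. The Pb arrays lay both above or both below all controls for 22 of 88 (25%), against 24.9% of all probes: 15 above, against 13.0%, and 7 below, against 11.9%. The log2 difference had a median of 0.13 over the family (quartiles -0.36 and 0.45) and of 0.03 over all probes (quartiles -0.25 and 0.31). It was above 0 for 54 of the 88 probes (61.4%), against 53.0% of all probes. With arrays scaled to their 75th percentile the median was 0.06 over the family and -0.03 over all probes. Without position correction it was 0.47 over the family and 0.09 over all probes. With dim probes filtered out 37 family probes remained among 24464, of which 0 passed the adjusted threshold in limma (0.0572% of all did), 2 had an unadjusted p under 0.05 (7.24% of all) and 10 did not overlap (26.7% of all).

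The share at a low unadjusted p was highest among dim probes. Under percentile 20 of control levels 10.0% of all probes had an unadjusted p under 0.05, in limma, and 3.91% between percentiles 40 and 60. Of the 40 family probes under percentile 20, 8 (20%) did, and of the 21 between 40 and 60, 2 (9.52%). Of the 17 between 20 and 40, 0 did, against 8.28% of all probes there, and of the 6 and 4 in the bands above percentiles 60 and 80, 0, against 4.84% and 2.13%. A log2 difference over 1 in either direction was seen in 9 of the 40 under percentile 20 (22.5%), against 23.8% of all probes of that level, and in 12 of all 88 against 8.71% of all probes. In the bands above percentile 60 it was seen in 0, and the largest difference among the 14 bright probes was 0.73. The bands were set on the control mean alone, which the difference also contains, and in the lowest band the median difference of all probes was 0.16.

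**Figure D4:**
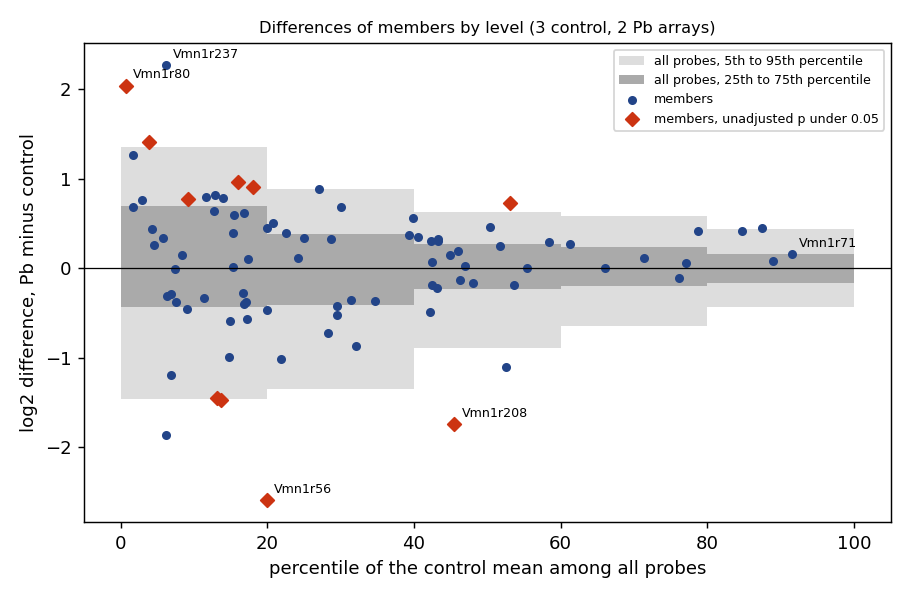
Log2 difference (Pb minus control) of the 88 vomeronasal receptor probes against the percentile of their control mean, over bands that hold the middle 50% and 90% of all probes in each of 5 bands of levels. The points fan out toward the dim end, from -2.60 (Vmn1r56) to 2.27 (Vmn1r237), both outside the 90% band of their level. Vmn1r208 (-1.75) and Vmn2r10 (-1.10) lie below the band of theirs, and the brighter Vmn1r32 probe (0.73) above it.

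The largest differences were at the floor. Vmn1r237 had the largest rise in size, with -1.89, -4.79 and -2.82 in controls and -1.65 and -0.14 in Pb. Its log2 difference was 2.27 (SE 0.98, limma adjusted p = 0.753). Control replicate 2 alone was low, and without it the difference was 1.46. The deposited 0.0277 there lay under the lower limit of that array (-4.85 in log2) and had been raised to it. Vmn1r80 was at -4.50, -3.59 and -3.68 in controls and at -1.66 and -2.11 in Pb, a difference of 2.04 (SE 0.36, limma unadjusted p = 0.00246, adjusted p = 0.703). Its groups did not overlap, yet the deposited intensities were 0.0432, 0.0791 and 0.0715 against 0.383 and 0.838, all under the array median.

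Vmn1r56 had the largest fall in size, at -2.18, -2.66 and -2.07 in controls and -3.25 and -6.55 in Pb, a difference of -2.60 (SE 0.99, limma adjusted p = 0.753). It rested on Pb replicate 2, without which it was -0.95. Vmn1r73, the next by size, had a difference of -1.86, and of -0.25 without that array. Vmn2r10 had -1.10, and 0.60 without it, so its sign turned. In Pb replicate 2 the deposited intensities of Vmn1r56, Vmn1r73 and Vmn2r10 were 0.0074, -0.0063 and 0.0228. All lay under the lower limit of that array (-5.05 in log2) and were raised to it. Their levels there are that limit shifted by the position correction.

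Vmn1r208 had the smallest p of the family. Its controls lay near the array median and its Pb values at percentiles 21.9 and 20.4, among the dim probes of the family. Its deposited intensities were 0.883, 1.01 and 0.956 in controls and 0.144 and 0.104 in Pb. After correction these became -0.36, -0.20 and -0.42 in controls and -2.01 and -2.13 in Pb, and every Pb value lay well below every control. The log2 difference was -1.75 (SE 0.19), with the Pb side too dim for the size to be read as a fold, and with a limma unadjusted p of 0.000244 and an adjusted p of 0.326. It was below 0 in all 15 settings tried, which share arrays and so are not independent. The ends were -1.17 (6 arrays as deposited, Pb replicate 3 included) and -2.95 (no position correction). The limma adjusted p ran from 0.0632 to 0.926, and Vmn1r208 passed in none. The lowest p came with dim probes filtered out.

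Its place on the array was one where both Pb arrays were dim. In array row 125, which holds 13 family probes, the median of all 91 probes as deposited lay 1.13 log2 units below the controls in Pb replicate 1 and 1.5 below in Pb replicate 2. Vmn1r4, in the same row, had deposited intensities of 3.61, 5.28 and 5.28 in controls and 1.83 and 1.35 in Pb. Its log2 difference was -1.57 before correction and -0.11 after. Vmn1r208 went from -2.95 to -1.75 by the same steps. The 16 spots around Vmn1r208 had a median difference of -0.08 after correction. Of the 13 family probes in the row, 2 lay below all controls in both Pb arrays after correction, Vmn1r208 and Vmn1r201 (-0.43), and 1 above, the Vmn1r32 probe. Of all probes on the arrays 11.9% lay below and 13.0% above.

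Apart from the brighter probe of Vmn1r32, the other probes at a low unadjusted p were dim. Vmn1r49 was at -2.45, -2.42 and -2.74 in controls and at -1.64 and -1.51 in Pb, a difference of 0.96 (SE 0.20, limma unadjusted p = 0.00525). Vmn1r18 was at -2.74, -3.13 and -2.97 in controls and at -2.12 and -2.23 in Pb, a difference of 0.77 (SE 0.21). For both, the Pb arrays lay above every control. Vmn1r188 had 1.41 and Vmn1r46 0.91, while Vmn1r220 had -1.47 and Vmn1r81 -1.46. None passed: the limma adjusted p of these 6 probes was 0.753. The 10 probes at an unadjusted p under 0.05 came from 9 array rows.

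The family also showed how far Pb replicate 2 was from the other arrays before correction. Of the 88 probes 61 (69.3%) lie in 7 rows of the array. In the row with the most family probes, 14, their deposited median was 2.21 log2 units above the controls in Pb replicate 2, and that of all 92 probes of the row 1.77. In row 289 the 8 family probes had 2.81, and in row 43 the 6 had -1.32. After correction these medians were 0.21, 0.19 and 0.48. Vmn1r74, in row 43, had deposited intensities of 5.003, 5.77 and 5.51 in controls and 4.03 and 0.989 in Pb, and its log2 difference turned from -1.44 to 0.42. Over all 88 probes the median size of the deviation of Pb replicate 2 from the control mean was 1.77 before and 0.53 after, and that of Pb replicate 1 was 0.56 and 0.37. The reference for the correction includes the controls, so part of this narrowing is built in.

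**Figure D5:**
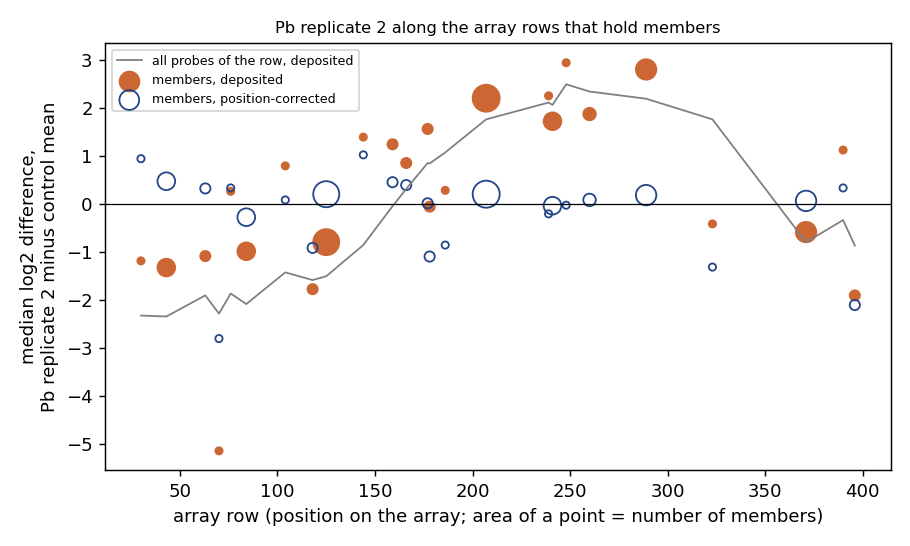
Median log2 difference of Pb replicate 2 from the control mean in each array row that holds vomeronasal receptor probes, as deposited (filled) and after position correction (open), with the median of all probes of the row as deposited (line). The 7 rows with 5 or more family probes follow the line as deposited, from -1.32 to 2.81, and lie nearer 0 after correction. Some rows with fewer lie farther from 0 after it, such as row 178 (2 probes, -0.05 to -1.09) and row 396 (2 probes, -1.90 to -2.10). Row 70 (1 probe, Vmn2r10) goes from -5.14 to -2.80.

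Markers of pancreatic exocrine cells were among the other genes measured: for 13 of the 14 probes of that marker list both Pb arrays exceeded every control, against 13.0% of all probes, with a list median of -1.89, -1.35 and -1.55 in controls and of 3.47 and 4.16 in Pb. The same number had an unadjusted p under 0.05 in limma, against 5.84% of all probes, and 0 passed the adjusted threshold (smallest adjusted p = 0.111). That list was chosen with earlier results of these data known, so its counts are a description. The part of these markers in the vomeronasal receptor values was not tested. Of the 9 probes for markers of vomeronasal and olfactory neurons 1 lay above and 1 below all controls (22.2%), against 24.9% of all probes. Of these 9, 0 had an unadjusted p under 0.05 in limma, against 5.84% of all probes (smallest adjusted p = 0.753). Their median difference was 0.03.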

How the data were processed

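The authors deposited 1 intensity per probe and array on a linear scale, with array medians of 0.972 to 0.987. The sources used here do not name the scanner software, the background correction or the normalisation. The number of arrays limits the precision. Intensities under the 1st percentile of what that array had above 0 were raised to this lower limit, those at or under 0 included. Log2 was then taken. The 638 probes of the last array rows were left out, which left 34949. A smooth surface was fitted, in 2 rounds, to how each of 5 arrays departed from a reference, the mean over Pb replicate 1 and all 3 controls, and subtracted (mgcv 1.9.3; tensor products, row by level and row by column; basis size 40 along rows, 6 for level, 8 along columns). Pb replicate 2 correlated with the controls at 0.66 to 0.67 before this and 0.92 to 0.93 after.

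Groups were compared two-sided by eBayes after lmFit (limma 3.58.1, R 4.3.3), with Benjamini-Hochberg adjustment over all 34949 probes (no filter on dim probes, since such a filter kept only 37 of the 88). The family, the lists and the left-out array were chosen with earlier results of these data known. Probes named were the 12 brightest and 5 dimmest, the 6 largest rises and falls, the 6 smallest p, Vmn1r208, both probes of Vmn1r32 and the brightest V2R probe, with others named after their values were seen. Gene names come from the platform annotation; all 88 probes matched RefSeq genes of GRCm38.p6 with no change of symbol. The alternatives are given at the end. Deviations of same-numbered arrays had r of 0.03 and -0.004, so the numbers were not taken as pairs.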

Additional observations from a re-analysis of the deposited data

Results flagged for a closer look

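Pb replicate 3 enters no comparison. As deposited, 44 of the 88 vomeronasal receptor probes lay above the median of that array, against 16, 17 and 18 in the 3 controls, and the median of the family stood at the 49.7th percentile. In that array Vmn1r227 had 72.9 and Vmn1r201 46.3, which are dim in all controls, and Vmn1r71 had 2.90. Over the 88 probes its values correlated with each control at -0.01 to 0.00, and over the 14 bright probes at 0.43 to 0.57, a description over few probes. Groups of 3 or fewer arrays were not searched for single arrays that stand apart.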

How the results depend on the processing

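No vomeronasal receptor probe passed the adjusted threshold under any of the 14 alternatives. Without position correction the median percentile of the family in controls moved from 26.3 to 27.6, its median log2 difference from 0.13 to 0.47, its probes at an unadjusted p under 0.05 from 10 (6 higher, 4 lower) to 16 (14 higher, 2 lower) and those of all probes from 2041 to 3932. With 6 arrays as deposited the first 2 values were 27.6 and 0.50. With dim probes filtered out, which leaves 37 family probes, 2 had an unadjusted p under 0.05 and 10 did not overlap in place of 22. An intensity trend in the variance gave 6 of the 88 at an unadjusted p under 0.05 in limma, against 7.22% of all probes. It called 21 of all probes past the adjusted threshold, the pseudocount called 12 and the filter 14. Array weights gave 7 family probes at an unadjusted p under 0.05, against 1206 (3.45%) of all probes. The 14 bright probes were 6 above the 75th and 0 above the 90th percentile. Leaving out 1 array gave family levels of 25.8 to 27.0, 14 to 16 bright probes, median differences of 0.07 to 0.16, 6 (without control replicate 2) to 20 (without Pb replicate 1) family probes at an unadjusted p, 1474 to 7119 of all probes, and 29 to 53 family probes that did not overlap, where fewer arrays overlap less by construction. No share of all probes that did not overlap is given for these fits, so the family counts of non-overlap have no background to be compared with. Without Pb replicate 1 the Pb side rests on 1 array, and the rise in family probes came with a rise over all probes. It was not read as a property of the family. With the replicate block 10 family probes and 1637 of all probes had an unadjusted p under 0.05. Of 405 comparisons of named probes 0 gained a call, and 34 uncalled differences changed sign. Otherwise the cause was not tested. The spread between controls limits the dim probes most.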
